A study of Mus musculus with 48 samples.

Results

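The genes described here are 9 genes of sebaceous gland lipid synthesis, Scd1, Scd3, Elovl3, Mc5r, Awat1, Awat2, Dgat2l6, Far2 and Soat1, which were taken by name from 2 tables of mouse RNA-sequencing values that list 46983 genes each. All 9 symbols were found once in both tables. They were chosen as known genes of the gland and not for their values, although earlier results of these data were known when the list was made. The first table holds 43 libraries of C57BL/6 mouse skin, sampled on the chin, the belly side (ventral) and the back (dorsal) at 6 hair cycle stages: competent telogen (rest), early, mid and late anagen (growth), catagen (regression) and refractory telogen (the following rest). The second holds 7 libraries, 2 of telogen ear skin, 3 of the ear cartilage/muscle complex and 2 of dorsal competent telogen skin that are also in the first. The labels name no transgene, treatment or age for any of these groups. The values are FPKM, read fragments scaled by transcript length and by library size, and levels of different genes can therefore be set side by side.

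The sebaceous gland sits beside the upper hair follicle, and its cells fill with lipid, burst and release sebum into the hair canal. Mouse sebum is rich in wax esters, diesters, triglycerides and cholesterol esters. Their synthesis starts from fatty acids that are lengthened by elongases such as Elovl3 and given a double bond by the stearoyl-CoA desaturases Scd1 and Scd3. Far2 reduces fatty acyl-CoA to fatty alcohol, Awat1 and Awat2 join fatty alcohols and acyl groups into wax esters, and Dgat2l6 belongs to the same acyltransferase family. Soat1 makes cholesterol esters, and Mc5r is the melanocortin receptor known for its part in sebum output. Because the libraries are of whole skin, fewer gland cells and less RNA per gland cell cannot be told apart in any value below.

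Each domain and stage had 2 or 3 libraries (11 groups of 2 and 7 groups of 3), with 6795729 to 24638108 fragments per library as estimated from the values. Nothing in the sample descriptions says that replicates came from different mice, so p-values measure the spread between these libraries, which may be technical. Lists of marker genes differed from some stage labels. The mean log2(FPKM + 1) of 10 genes of dividing cells was 4.7 to 5.1 in chin and ventral competent telogen, above its 1.9 to 2.6 in the 3 refractory telogen groups and in ventral early anagen. Of 18 hair shaft and inner root sheath genes 17 were found, and their mean was 10.0 in both dorsal competent telogen libraries, as in late anagen (10.0 to 10.1). One of the 2 ventral catagen libraries has a location label that names the ear, against its title and source. Leaving it out changed none of the counts of genes that differed over stages or domains.

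Awat2, Dgat2l6 and Awat1 lie together on chromosome X within 176 kb, in that order (GRCm38, GENCODE vM21: Awat2 from 100402221 to 100442717 on the minus strand, Dgat2l6 from 100524838 to 100546144 and Awat1 from 100572251 to 100578205, both on the plus strand). Scd3 (44203269 to 44244016, plus strand) and Scd1 (44394455 to 44407879, minus strand) lie on chromosome 19 with Scd2 and Scd4 between them, and Elovl3 (46131897 to 46135694, plus strand) is on the same chromosome. Far2 is on chromosome 6 (148047259 to 148182758, plus strand) and Soat1 on chromosome 1 (156424525 to 156474331, minus strand). Scd1 and Scd3 share some sequence: 6.26% of the 50-base words of the Scd3 transcripts also occur in transcripts of the other Scd genes, so their split of reads is less certain than that of the other genes, whose transcripts share no such word with one another.

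RefSeq start sites (GRCm38.p6) were at hand for 6 of the 9 genes. The 150 bases upstream of the start are shown for the genes whose levels moved together below, because the 5 genes lie on 3 chromosomes and the sequences let their starts be compared. Capitals mark CCAAT, read on either strand, and each sequence is written 5′ to 3′ on the strand of its gene.
Scd3, chr19:44203138-44203287, plus strand: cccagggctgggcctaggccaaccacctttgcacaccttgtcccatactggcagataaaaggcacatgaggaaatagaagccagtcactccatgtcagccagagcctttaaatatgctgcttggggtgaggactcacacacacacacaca
Awat1, chrX:100572097-100572246, plus strand: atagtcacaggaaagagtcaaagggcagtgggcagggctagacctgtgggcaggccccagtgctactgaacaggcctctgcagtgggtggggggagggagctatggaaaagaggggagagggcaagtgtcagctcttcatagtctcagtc
Awat2, chrX:100442718-100442867, minus strand: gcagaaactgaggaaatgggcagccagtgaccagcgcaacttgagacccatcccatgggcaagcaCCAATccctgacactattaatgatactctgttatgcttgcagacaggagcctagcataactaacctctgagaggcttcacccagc
Awat2, second start, chrX:100412588-100412737, minus strand: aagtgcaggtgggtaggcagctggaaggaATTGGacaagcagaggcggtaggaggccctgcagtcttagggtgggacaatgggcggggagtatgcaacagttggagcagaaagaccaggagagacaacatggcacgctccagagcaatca
Dgat2l6, chrX:100524688-100524837, plus strand: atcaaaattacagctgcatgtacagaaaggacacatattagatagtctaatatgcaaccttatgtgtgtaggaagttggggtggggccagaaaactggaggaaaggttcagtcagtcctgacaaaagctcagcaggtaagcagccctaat
Far2, chr6:148047266-148047415, plus strand: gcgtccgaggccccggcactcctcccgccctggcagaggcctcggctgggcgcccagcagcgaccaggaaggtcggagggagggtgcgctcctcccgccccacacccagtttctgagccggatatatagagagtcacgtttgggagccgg
CCAAT was found in 3 of the 7 start regions of the 6 genes (both Awat2 starts and Soat1) and in 24.5% of 32851 start regions of the same length. The TATA box letters TATAAA were in none of the 7 and in 7.57% of all regions, and AGGTCA, the core letters of many nuclear receptor sites, were in none of the 7 and in 8.58% of all. A match is only a match of letters in this window.

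Of the 9 genes, 5 shared 1 pattern over the 18 groups. Scd3, Awat1, Awat2, Dgat2l6 and Far2 were high in ventral competent telogen, ventral early anagen and dorsal early anagen, at intermediate levels in ventral mid anagen and chin refractory telogen, and lower in the other 13 groups, except that Far2 in chin competent telogen and chin early anagen was close to its ventral mid anagen level (steps of 0.04 and 0.26 on the log2(FPKM + 1) scale that did not pass the test). Over the 18 group means of log2(FPKM + 1), their pairwise Pearson correlations ran from 0.88 to 0.98, a description of groups that share tissue and libraries. Scd1 followed this pattern in part (r from 0.60 to 0.77 with the 5 genes), Soat1 and Mc5r less (0.45 to 0.64), and Elovl3 ran against it (-0.34 to -0.46).

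**Figure D1:**
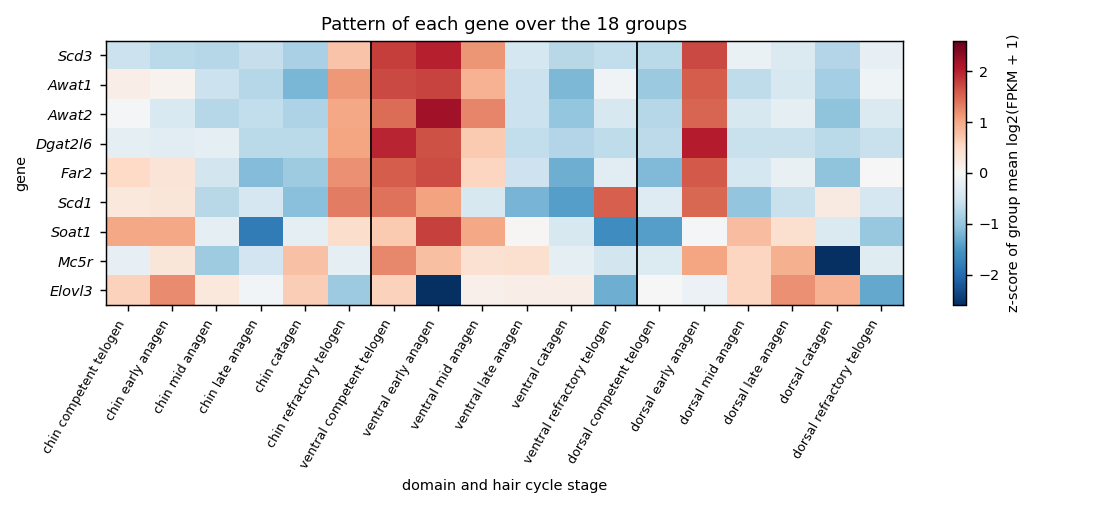
Heat map of each gene's z-score (group mean log2(FPKM + 1), scaled over the 18 groups; rows are genes, columns are domains and stages, vertical lines separate chin, ventral and dorsal skin). Scd3, Awat1, Awat2, Dgat2l6 and Far2 are red in the same 5 columns, whereas Elovl3 is lowest in ventral early anagen and Mc5r in dorsal catagen.

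In 4 of these genes the 13 libraries of the 5 groups did not overlap with the 30 libraries of the other groups. Scd3 was 15.3 to 90.8 FPKM (median 60.4) in the former and 2.06 to 6.35 FPKM (median 3.12) in the latter. The wax synthase Awat1 was 31.9 to 108 FPKM (median 74.0) against 3.92 to 26.0 FPKM (median 8.21), and Awat2 was 15.5 to 70.9 FPKM (median 31.3) against 1.27 to 6.05 FPKM (median 3.19). Dgat2l6 was 1.83 to 8.97 FPKM (median 6.41) against 0.06 to 0.91 FPKM (median 0.27). Far2, at 27.0 to 90.5 FPKM against 4.56 to 35.9 FPKM, overlapped through 1 of the 2 chin early anagen libraries (35.9 FPKM) and both chin competent telogen libraries (28.2 and 30.9 FPKM). The 5 groups were picked from the values of these genes, so the separation is a description. Among the 21257 genes tested, 53 (0.249%) separated the same libraries in this direction.

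Awat1, the more abundant of the wax synthases, was 108, 62.3 and 84.0 FPKM in the 3 ventral competent telogen libraries, 88.7, 83.0 and 87.5 FPKM in ventral early anagen and 77.7 and 68.2 FPKM in dorsal early anagen. Intermediate values were found in chin refractory telogen (39.8, 74.0 and 35.7 FPKM) and ventral mid anagen (31.9 and 44.9 FPKM). It was lowest in catagen, where all 7 libraries of the 3 domains lay between 3.92 and 6.27 FPKM, and in dorsal competent telogen (5.47 and 5.65 FPKM). In the order of the 18 group means, the first neighbours that differed were ventral mid anagen and, below it, chin competent telogen (17.7 and 19.2 FPKM). The step was 1.00 on the log2(FPKM + 1) scale (limma, adjusted p = 0.0045). Here and below, neighbouring groups were picked by the order of each gene's own means. The adjustment of their p-values covers the genes and not this choice of pair.

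Awat2 was highest in ventral early anagen (70.9, 66.5 and 70.4 FPKM), 1.01 on the log2(FPKM + 1) scale above dorsal early anagen, the next group (37.8 and 30.6 FPKM; adjusted p = 0.00055). Its level in ventral competent telogen was 40.9, 25.6 and 31.3 FPKM. Dorsal catagen held the lowest mean, with 1.67 and 1.35 FPKM, and every catagen library was at or below 2.51 FPKM.

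Far2, the reductase that supplies fatty alcohol, was 90.5, 83.4 and 90.4 FPKM in ventral early anagen, 84.5 and 77.4 FPKM in dorsal early anagen and 86.4, 68.7 and 82.5 FPKM in ventral competent telogen. These 3 groups overlapped, and none of the neighbouring steps among them passed the test. Ventral catagen was lowest (4.56 and 5.10 FPKM). Dgat2l6 was the least abundant of the 9 genes. It was highest in dorsal early anagen (7.94 and 8.87 FPKM) and ventral competent telogen (8.97, 6.41 and 8.69 FPKM), and reached 0.5 FPKM in 18 of 43 libraries. At its lowest, in ventral catagen, it was 0.08 and 0.12 FPKM.

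The desaturases differed from each other. Scd3 was 90.8, 87.2 and 89.2 FPKM in ventral early anagen and had its lowest mean in chin catagen (2.48, 2.06 and 2.20 FPKM), a 39.6-fold range of group means. Scd1, which is also expressed in fat cells, had a 5.54-fold range. Its highest mean was in ventral refractory telogen, where the 2 libraries were far apart (504 and 199 FPKM), followed by dorsal early anagen (312 and 305 FPKM), ventral competent telogen (316, 276 and 292 FPKM) and chin refractory telogen (283, 268 and 296 FPKM). With ventral early anagen these are the first 5 groups in the order, and neighbours among them did not pass the test, whereas the step down to chin early anagen did. The first place of ventral refractory telogen rests on replicate 1. Replicate 2 alone, at 199 FPKM, was below every library of dorsal and ventral early anagen, ventral competent telogen and chin refractory telogen. Scd3 was 3.01 and 3.22 FPKM in these 2 libraries, among its low values. Summed adipocyte markers (12 of 12 found, none at 0) were highest in the same group. They were 7865 FPKM in replicate 1 and 9048 FPKM in replicate 2, the reverse of Scd1, while their mean log2(FPKM + 1) was 7.50 and 7.23. The sums were 7250 to 7783 FPKM in chin refractory telogen, 2688 to 2725 FPKM in dorsal early anagen and 2605 to 3525 FPKM in ventral competent telogen. The part of these markers in the level of Scd1 was not tested.

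Elovl3 was the most abundant of the 9 genes in many groups and had a pattern of its own. Chin early anagen (210 and 184 FPKM) and dorsal late anagen (197, 188 and 198 FPKM) were highest. Ventral early anagen was lowest, with 39.0, 37.3 and 38.5 FPKM, and stood 0.81 on the log2(FPKM + 1) scale below the next group, dorsal refractory telogen (68.0 and 68.0 FPKM; adjusted p = 4.0e-05). The refractory telogen libraries of all domains lay between 62.3 and 95.5 FPKM, below every library outside refractory telogen and ventral early anagen (105 FPKM or more). Ventral early anagen was therefore the group in which Scd3, Awat1, Awat2 and Far2 had their highest means and Elovl3 its lowest. The markers of dividing cells were low in the same groups, and their mean over the 18 groups had a Pearson correlation of 0.87 with Elovl3, against -0.23 to 0.19 with the other 8 genes. Their part in the level of Elovl3 was not tested.

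Mc5r, encoded on chromosome 18 from 68337596 to 68342446 on the plus strand (GRCm38), ranged from 0.98 and 0.99 FPKM in dorsal catagen to 15.7, 11.2 and 12.4 FPKM in ventral competent telogen. Dorsal catagen stood 1.42 on the log2(FPKM + 1) scale below the next group, chin mid anagen (4.39 and 4.22 FPKM; adjusted p = 0.00011), and no other neighbouring step of this gene passed the test. Chin catagen, with 11.9, 9.22 and 9.67 FPKM, was on the high side. The ventral refractory telogen libraries were 10.1 and 2.76 FPKM, the widest pair of this gene. Soat1 had the narrowest range, 3.47-fold between group means. It was highest in ventral early anagen (59.2, 65.1 and 67.1 FPKM) and lowest in chin late anagen (19.5 and 17.4 FPKM), and no neighbouring step passed the test.

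**Figure D2:**
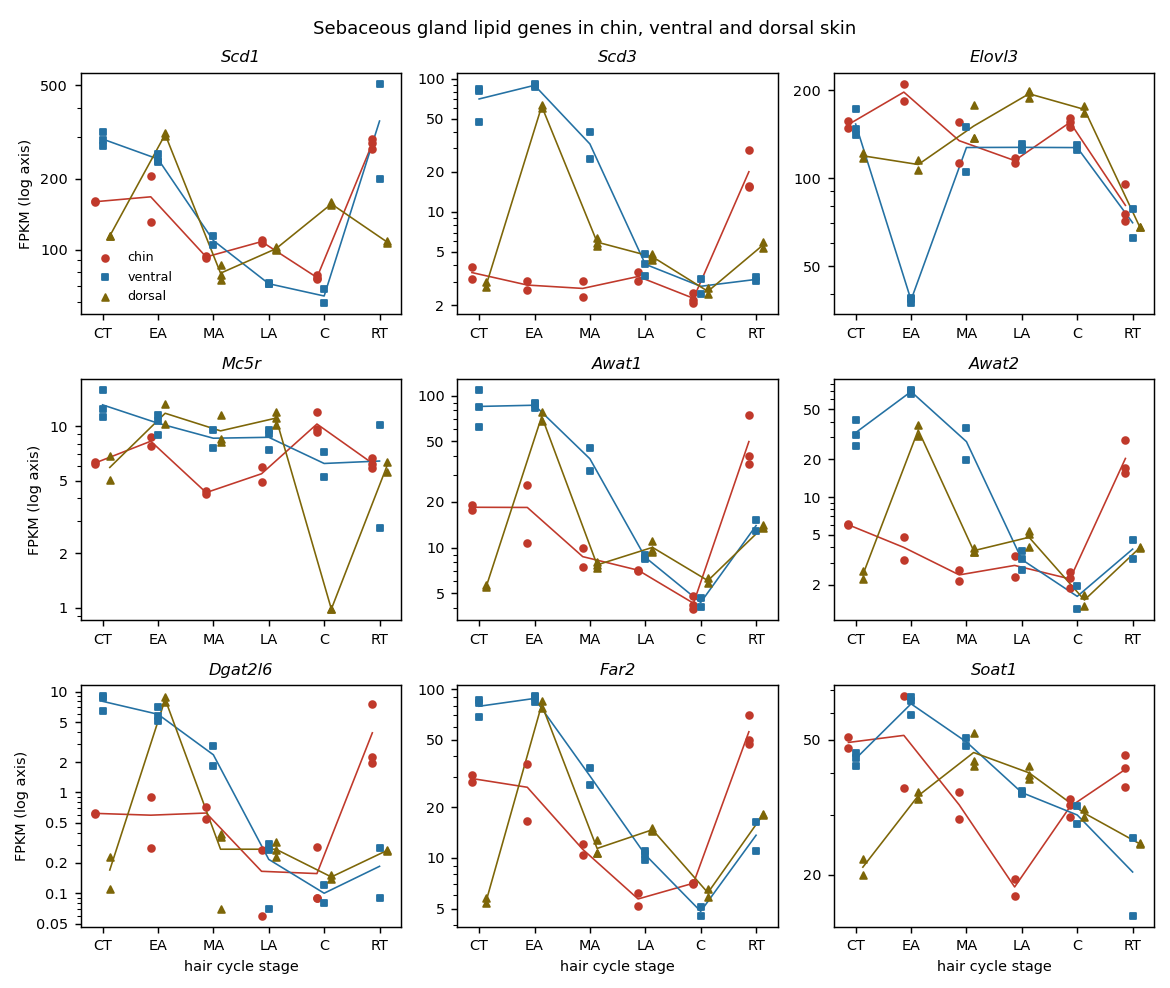
FPKM of the 9 genes (log axis) by hair cycle stage (CT, competent telogen; EA, MA and LA, early, mid and late anagen; C, catagen; RT, refractory telogen), with 1 point per library, lines through group means and a colour and marker for each domain. The ventral lines of Scd3, Awat1, Awat2, Dgat2l6 and Far2 start high and fall to catagen, the dorsal lines peak at early anagen only, and the chin lines rise at refractory telogen.

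Over the 6 stages, all 9 genes differed in chin skin, in ventral skin and in dorsal skin (limma F-test, adjusted p under 0.05). So did 66.2%, 70.2% and 68.5% of all genes tested, so the count of genes by itself is not particular to this list. The course over the stages also differed between domains for all 9 genes, as for 73.3% of all genes. The adjusted p of this interaction ran from 9.7e-17 for Scd3 to 6.1e-08 for Mc5r.

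In dorsal skin, 8 of the 9 genes were higher in early anagen than in competent telogen, against 35.2% of all genes. The hair shaft markers summed to 33320 and 32892 FPKM in dorsal competent telogen, a late anagen level, above the dorsal early anagen sums given below. Their part in these rises was not tested. The median of all genes was 0.25 higher in early anagen on the log2 scale. Awat1 rose from 5.47 and 5.65 FPKM to 77.7 and 68.2 FPKM, 11.2-fold on the FPKM + 1 scale (log2 fold change 3.49, standard error 0.27, adjusted p = 2.7e-11). Far2 rose from 5.76 and 5.43 FPKM to 84.5 and 77.4 FPKM (12.4-fold), and Scd3 from 2.71 and 2.97 FPKM to 63.7 and 60.4 FPKM (16.4-fold). Elovl3, at 117 and 122 FPKM against 116 and 107 FPKM, missed the threshold (adjusted p = 0.65). When libraries were scaled by the median of ratios, Soat1 and Mc5r missed the threshold (adjusted p = 0.27 and 0.14), and Mc5r also did without dorsal competent telogen replicate 2 or dorsal early anagen replicate 1 (0.11 and 0.098). From early to mid anagen, 6 genes (Scd1, Scd3, Awat1, Awat2, Dgat2l6 and Far2) fell, against 30.1% of all genes, and Mc5r and Soat1 missed the threshold (adjusted p = 0.37 and 0.055). Awat1 dropped to 7.40, 8.00 and 7.70 FPKM, and Scd1 fell 3.86-fold to 74.0, 77.8 and 86.5 FPKM. Elovl3 rose 1.34-fold in the same step, and this call was lost without 1 of 2 libraries (dorsal early anagen replicate 2, adjusted p = 0.12, or dorsal mid anagen replicate 3, adjusted p = 0.10). None of the 9 genes passed the test between mid and late anagen in dorsal skin (limma), and 1 of them, Elovl3, had an unadjusted p under 0.05 (0.0047). The share of all genes that passed in this step is not given here, so the count cannot be read as particular to these genes.

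In ventral skin the fall came in a pair of steps. From early to mid anagen the same 6 genes as in dorsal skin fell, against 25.6% of all genes, among them Scd3 (2.77-fold) and Far2 (2.83-fold). Mc5r and Soat1 missed the threshold (adjusted p = 0.47 and 0.082). The call of Dgat2l6 was lost without ventral mid anagen replicate 1 (adjusted p = 0.051). Elovl3 rose 3.22-fold, from 39.0, 37.3 and 38.5 FPKM to 149 and 105 FPKM. From mid to late anagen 7 genes, all but Elovl3 and Mc5r, fell, against 11.6% of all genes, with Awat2 going from 19.7 and 35.7 FPKM to 2.62, 3.19 and 3.71 FPKM (6.63-fold) and Awat1 from 31.9 and 44.9 FPKM to 8.94, 8.53 and 8.42 FPKM (4.04-fold). The calls of Scd1 and Soat1 in this step were lost without either ventral mid anagen library (adjusted p = 0.064 and 0.16 for Scd1, 0.17 and 0.11 for Soat1), and that of Soat1 also without any 1 of the 3 late anagen libraries (0.065 to 0.072). Between the telogen stages, 8 genes were higher in ventral competent than in ventral refractory telogen, against 34.5% of all genes. Scd3 was 83.8, 47.0 and 80.2 FPKM in the former and 3.01 and 3.22 FPKM in the latter (16.8-fold, adjusted p = 4.9e-15). Scd1 was the exception (log2 difference -0.11, adjusted p = 0.72), and its direction depended on the refractory telogen library. The difference was 0.56 without replicate 1 and -0.77 without replicate 2, both past the threshold. Without ventral refractory telogen replicate 2 the log2 fold change of Mc5r fell from 1.11 to 0.33, with an adjusted p of 0.22.

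In chin skin the 5 genes that moved together had their lowest means in late anagen or catagen and their highest in refractory telogen. From catagen to refractory telogen Scd1, Scd3, Awat1, Awat2, Dgat2l6 and Far2 rose, 6 of 9 against 30.5% of all genes, and Soat1 missed the threshold (adjusted p = 0.054). Awat1 went from 4.78, 3.92 and 4.22 FPKM to 39.8, 74.0 and 35.7 FPKM (9.11-fold, adjusted p = 1.8e-12), and Far2 from 7.14, 6.99 and 7.15 FPKM to 47.2, 70.8 and 49.9 FPKM (6.92-fold). The groups did not overlap for these 6 genes, and the share of all genes without overlap in this step is not given here. Elovl3 fell 1.93-fold and Mc5r 1.55-fold in the same step. The call of Mc5r was lost without chin catagen replicate 1 or chin refractory telogen replicate 1 (adjusted p = 0.086 and 0.059). Chin refractory telogen replicate 2 was the highest of its group for Awat1, Awat2, Scd3, Dgat2l6 and Far2. Other markers changed in the same step. Summed skeletal muscle markers (10 of 10 found, none at 0) went from 2645 to 2822 FPKM up to 10393 to 16052 FPKM, macrophage markers (6 of 6 found, none at 0) from 17.8 to 18.7 FPKM up to 54.4 to 92.1 FPKM, and hair shaft markers from 36045 to 37009 FPKM down to 8250 to 12890 FPKM. Replicate 2 stood apart from the other refractory telogen libraries here too, with the lowest muscle and macrophage and the highest shaft sums. The part of these markers was not tested. In chin competent telogen the same 6 genes were lower than in chin refractory telogen, against 17.8% of all genes, while Elovl3 was higher (1.90-fold) and Mc5r and Soat1 missed the threshold (adjusted p = 1 and 0.24). For Scd3, Awat1, Awat2, Dgat2l6 and Far2 this was the opposite order of the telogen stages from ventral skin. Elovl3 was higher in competent telogen in both domains, and Scd1 did not pass the test in ventral skin. Scd3, for example, was 3.12 and 3.89 FPKM in chin competent telogen and 15.3, 29.0 and 15.7 FPKM in chin refractory telogen.

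Among the 3 domains, competent telogen gave 8 of the 9 genes that differed (54% of all genes) and early anagen also gave 8 (51.6%). Mid anagen gave 7 genes (38.1%), late anagen 5 (20.8%), catagen 2 (42.9%) and refractory telogen 7 (42.2%). Those that missed the threshold were Elovl3 at competent telogen, Mc5r at early anagen, Scd1 and Elovl3 at mid anagen, and Elovl3 and Mc5r at refractory telogen. The 5 genes at late anagen were Scd1, Elovl3, Mc5r, Far2 and Soat1, and the 2 at catagen were Mc5r and Scd1. Each of Scd3, Awat1, Awat2, Dgat2l6 and Far2 missed the threshold there, with adjusted p from 0.12 to 1. With the 7 catagen libraries fitted alone, 5 genes passed. The late anagen count was 3 without chin replicate 1, chin replicate 2, dorsal replicate 1 or dorsal replicate 3.

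At competent telogen ventral skin stood apart. In ventral skin 7 genes, all but Elovl3 and Soat1, were higher than in chin skin, against 15.5% of all genes, and all 9 were lower in dorsal than in ventral skin, against 38% of all genes. Elovl3 is the weakest of the 9 (117 and 122 FPKM against 173, 147 and 140 FPKM, log2 difference -0.35), and its sign turned when libraries were scaled by the median of ratios (0.085). It also missed the threshold without ventral replicate 1, dorsal replicate 1 or dorsal replicate 2 (adjusted p from 0.090 to 0.15). The higher Mc5r of ventral over chin skin was lost without chin replicate 2 (adjusted p = 0.052). Dgat2l6 was 8.97, 6.41 and 8.69 FPKM in ventral, 0.61 and 0.63 FPKM in chin and 0.23 and 0.11 FPKM in dorsal skin, with no overlap. Far2 was 86.4, 68.7 and 82.5 FPKM in ventral, 28.2 and 30.9 FPKM in chin and 5.76 and 5.43 FPKM in dorsal skin, and the dorsal level was also below the chin level (log2 difference -2.21, standard error 0.21). The hair shaft markers summed to 10521 to 12405 FPKM in the ventral, 13776 to 14967 FPKM in the chin and 32892 to 33320 FPKM in the dorsal libraries. Their part in these differences was not tested.

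At early anagen, Scd1, Scd3, Awat1, Awat2, Dgat2l6 and Far2 were higher in ventral than in chin skin, 6 of 9 against 13% of all genes, and dorsal skin had the same 6 above the chin level, against 16.7%. These comparisons share the chin libraries. Awat2 was 4.76 and 3.17 FPKM in chin skin, below the 3 ventral (66.5 to 70.9 FPKM) and the 2 dorsal libraries (30.6 and 37.8 FPKM). The fold on the FPKM + 1 scale was 14.3 for ventral and 7.14 for dorsal over chin skin. The chin early anagen libraries differed from each other, replicate 1 being higher in Scd1, Awat1, Far2 and Soat1 (67.1 against 35.9 FPKM for Soat1). Without replicate 2 the higher Scd1 of ventral and dorsal skin was not past the threshold (adjusted p = 0.51 and 0.075), and the former also not without ventral early anagen replicate 1 (0.065). Elovl3 was lower in ventral than in chin skin (5.03-fold) and lower in dorsal than in chin skin (1.76-fold), as was Soat1 in dorsal skin (1.42-fold, adjusted p = 0.039). Between dorsal and ventral skin, Scd3, Awat1, Dgat2l6 and Far2 had log2 differences (dorsal minus ventral) from -0.51 to 0.44 and standard errors of 0.19 to 0.26, and none of them passed the test. Awat2 was lower in dorsal skin, by 1.01 on the log2(FPKM + 1) scale (limma, adjusted p = 0.00055). Group means in dorsal and ventral skin were 111 and 38.3 FPKM for Elovl3 and 34.2 and 63.8 FPKM for Soat1.

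At mid anagen, 7 genes, all but Scd1 and Elovl3, were higher in ventral than in chin skin, against 10.3% of all genes. Scd3 was 24.7 and 39.9 FPKM in ventral, 3.03 and 2.30 FPKM in chin and 6.35, 5.56 and 5.88 FPKM in dorsal skin, with no overlap. The calls of Mc5r, Dgat2l6 and Soat1 in ventral over chin skin were each lost without 1 of 2 or more libraries (adjusted p from 0.056 to 0.20), chin replicate 2 and ventral replicate 2 for all of them, chin replicate 1 for Mc5r and ventral replicate 1 for Soat1. At refractory telogen the order of domains turned. In ventral skin Scd3, Awat1, Awat2, Dgat2l6, Far2 and Soat1 were lower than in chin skin, 6 of 9 against 24.7% of all genes. In dorsal skin these and Scd1 were lower than in chin skin, 7 of 9 against 27.2%, and Elovl3 and Mc5r missed the threshold in both. Awat2 was 16.95, 28.5 and 15.5 FPKM in chin, 4.51 and 3.18 FPKM in ventral and 3.9 and 3.99 FPKM in dorsal skin, with a log2 difference of dorsal minus ventral skin of 0.04 (standard error 0.24) that did not pass the test. Scd1 was lower in dorsal skin (107 and 109 FPKM) than in chin skin (2.6-fold), while ventral minus chin skin was 0.17 (adjusted p = 0.56), 0.84 without ventral replicate 2 and -0.50 without ventral replicate 1, the latter 2 past the threshold. Mc5r, at -0.16 in the same comparison, was 0.62 without ventral replicate 2 (adjusted p = 0.027) and -0.94 without replicate 1 (adjusted p = 0.00048). The adipocyte markers were high in both of these groups, as given above.

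In the ear table, 8 of the 9 genes were higher in telogen ear skin than in dorsal competent telogen skin, against 44.7% of all genes. Awat1 was 328 and 311 FPKM in ear skin and 5.47 and 5.65 FPKM in dorsal skin (48.8-fold on the FPKM + 1 scale, log2 difference 5.61, standard error 0.07, adjusted p = 5.2e-08). Far2 was 169 and 175 FPKM against 5.76 and 5.43 FPKM (26.3-fold), and Dgat2l6 was 29.6 and 32.6 FPKM against 0.23 and 0.11 FPKM (27.4-fold). Dgat2l6 reached 0.5 FPKM in the ear skin libraries alone. It therefore entered the test only through the group where it is high, and its place in the count was nearly fixed by the filter. Elovl3 was 651 and 669 FPKM against 117 and 122 FPKM (5.5-fold), and Scd1 was 844 and 805 FPKM against 115 and 114 FPKM (7.16-fold). Scd3 (29.4 and 30.3 FPKM), Awat2 (14.4 and 13.7 FPKM) and Soat1 (44.4 and 45.6 FPKM) were 8.04-fold, 4.43-fold and 2.09-fold higher. Mc5r was 3.77 and 3.51 FPKM in ear skin and 6.81 and 5.03 FPKM in dorsal skin, a log2 difference of -0.57 that missed the threshold (adjusted p = 0.062). When libraries were scaled by the median of ratios it was -0.98 with an adjusted p of 0.0083, and without complex replicate 3, which changes only the shared estimate of the spread, the adjusted p was 0.025.

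The dorsal libraries of this comparison had hair shaft markers as high as in late anagen, whereas these markers summed to 178 to 191 FPKM in ear skin, and the median of all genes was 0.33 higher in ear skin on the log2 scale. Epidermal markers (8 of 8 found, none at 0) summed to 17588 to 19141 FPKM in ear skin and 3770 to 3863 FPKM in dorsal skin, and their mean log2(FPKM + 1) of 9.88 to 9.98 in ear skin was above that of all 43 skin libraries (8.53 or less). Macrophage markers summed to 148 to 162 FPKM against 43.8 to 43.9 FPKM, and the part of these markers was not tested. With dorsal refractory telogen in place of competent telogen, all 8 genes were again higher in ear skin, with log2 differences from 0.84 (Soat1) to 4.66 (Dgat2l6), and Mc5r was lower (-0.59, adjusted p = 0.038). Against dorsal early anagen, a choice made after the data had been seen, ear skin was still higher in Awat1 (log2 difference 2.12), Elovl3 (2.56), Dgat2l6 (1.77), Scd1 (1.41) and Far2 (1.08), but lower in Scd3 (-1.03), Awat2 (-1.22) and Mc5r (-1.45). Soat1 did not pass the test there (0.39, adjusted p = 0.17). Ear skin values of Scd1, Elovl3, Awat1, Dgat2l6 and Far2 were above those of all 43 skin libraries, and those of Scd3 and Awat2 were exceeded by 9 and 13 of them. For the position against the 43 libraries and for the replaced dorsal tissues, the share of all genes is not given here, so these results are descriptions.

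The ear cartilage/muscle complex had little of these genes apart from Scd1. All 9 genes were lower there than in ear skin, against 38.5% of all genes. Dgat2l6 is among them although it entered the test only through its ear skin values. Awat1 was listed at 0 in its 3 libraries, where 3 fragments would have given about 0.10 to 0.37 FPKM. Elovl3 was 0.63, 0.11 and 0.36 FPKM, Scd3 was 0.12, 0.09 and 0.06 FPKM and Far2 was 0.95, 0.92 and 1.47 FPKM. Soat1 was at 4.0, 6.86 and 4.93 FPKM. Scd1 was 672, 653 and 677 FPKM, 1.23-fold below ear skin but 5.8-fold above dorsal skin. In the comparison with dorsal skin, 7 genes were lower, against 28.3% of all genes, and Dgat2l6 did not pass the test (0.06, 0.10 and 0.07 FPKM against 0.23 and 0.11 FPKM, adjusted p = 0.29). The adipocyte markers summed to 3734 to 3992 FPKM in the complex, 1400 to 1476 FPKM in ear skin and 4645 to 4680 FPKM in dorsal skin, with none at 0, and their part in the Scd1 level was not tested. The markers of skeletal muscle (18835 to 21774 FPKM) and cartilage (7 of 8 found, 1418 to 1806 FPKM) matched the label of the complex, and the 8 epidermal markers summed to 3.54 to 3.68 FPKM there, with 2 of them at 0.

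**Figure D3:**
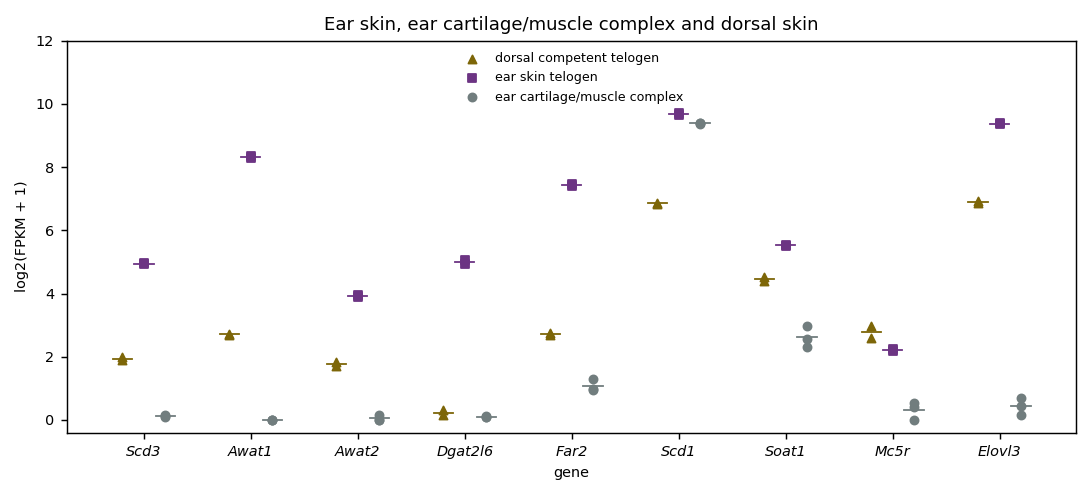
log2(FPKM + 1) of the 9 genes in dorsal competent telogen skin (2 libraries), telogen ear skin (2) and the cartilage/muscle complex of the ear (3), with 1 point per library and a bar at the mean. Ear skin lies above dorsal skin for all genes but Mc5r, and the complex is near 0 for most genes and near ear skin for Scd1.

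Related enzymes did not keep a fixed ratio. Awat1 was 1.24 to 1.25 times Awat2 in the 3 ventral early anagen libraries, where both were high, and 2.43 to 2.68 times in ventral competent telogen. The ratio was 2.05 and 2.23 in dorsal early anagen and 22.7 in both ear skin libraries, above the highest value of any skin domain library, 5.46. Scd1 was 2.68 to 2.80 times Scd3 in ventral early anagen, 4.90 and 5.05 times in dorsal early anagen and 61.9 and 168 times in ventral refractory telogen. Awat1 and Far2 stayed closer to each other, with a ratio of 0.56 to 1.37 over the 43 skin libraries and of 1.78 and 1.94 in ear skin. Ratios were not tested.

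**Figure D4:**
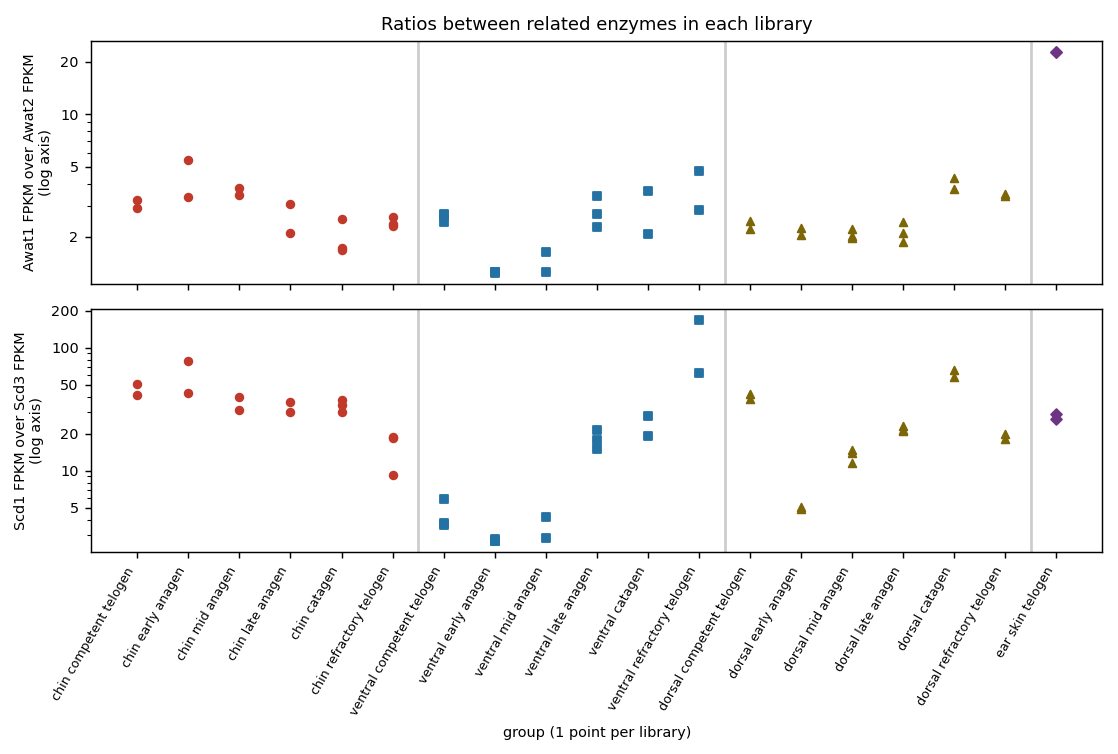
Ratio of Awat1 to Awat2 FPKM (upper panel) and of Scd1 to Scd3 FPKM (lower panel), both on log axes, with 1 point per library in the 18 skin groups and in telogen ear skin. The Awat1 to Awat2 ratio is lowest in ventral early anagen and 22.7 in ear skin. The Scd1 to Scd3 ratio is lowest in the skin groups with the highest Scd3, and it is 26.5 and 28.7 in ear skin.

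Other genes of lipid synthesis moved with the 9 in some comparisons. Lists of 19 genes of fatty acid synthesis, elongation and desaturation, 16 genes of neutral lipid assembly and droplets, and 14 regulators and markers of the gland and its duct were used, and 17, 16 and 14 of them were tested in the skin table. From dorsal competent telogen to early anagen, 12 of the 17 fatty acid genes rose (35.2% of all genes did) and 1 fell, with a median log2 change of 0.93 against 0.25 over all genes. Elovl5, an elongase of polyunsaturated fatty acids, rose most (log2 2.16), and Fads3 fell (-1.61). Of the 16 neutral lipid genes 10 rose and 2 fell, and of the 14 gland genes 9 rose and 2 fell, led by the duct keratin Krt79 (2.53), the hydroxylase Fa2h (2.30) and the lipid droplet gene Cidea (1.94). The reverse was seen from dorsal early to mid anagen, with 10 of 17 fatty acid genes, 11 of 16 neutral lipid genes and 9 of 14 gland genes lower against 30.1% of all genes, among them Pparg, a regulator of sebocyte and fat cell differentiation (-1.82).

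From chin catagen to refractory telogen, 11 of 16 neutral lipid genes and 11 of 14 gland genes rose (30.5% of all genes did), with medians of 0.72 and 0.96 against 0.09 over all genes, and Dgat1 (1.78) and Cidea (2.16) led them. Of the 17 fatty acid genes 8 rose and 3 fell, and the desaturase Scd2 fell most (-1.85). From ventral early to mid anagen, 10 of 17 fatty acid genes, 10 of 14 gland genes and 5 of 16 neutral lipid genes fell, against 25.6% of all genes, with medians of -0.54, -0.71 and -0.21 against -0.09 over all genes. In ear skin against dorsal competent telogen skin, 13 of 18 fatty acid genes, 12 of 15 neutral lipid genes and 9 of 14 gland genes were higher, against 44.7% of all genes, and 3 of each list were lower. The medians were 0.82, 1.09 and 1.07 against 0.33 over all genes. The largest differences were those of Fa2h (log2 4.73; 313 and 360 FPKM against 11.2 and 12.1 FPKM) and Cidea (3.84; 346 and 382 FPKM against 23.3 and 25.5 FPKM).

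Most of the gland genes tended to be high in groups where hair shaft transcripts were low. Over the 18 group means, the hair shaft list had Pearson correlations of -0.74 to -0.88 with Scd3, Awat1, Awat2, Dgat2l6, Far2 and Scd1, and of -0.48, -0.28 and 0.36 with Soat1, Mc5r and Elovl3. Other lists ran with the same 6 genes, with correlations of 0.40 (Scd3) to 0.74 (Far2) for the epidermal markers, 0.40 to 0.71 for the macrophage markers and 0.70 to 0.84 for the cartilage markers, whose sum was at most 2.45 FPKM in any skin library. The hair shaft markers summed to 6545 to 7185 FPKM in ventral early anagen, 8928 to 9518 FPKM in dorsal early anagen and 36045 to 37009 FPKM in chin catagen, with none at 0 in any group. FPKM values share 1 total per library, so that a rise of abundant shaft transcripts and a fall of other genes are not independent, and the part of these markers was not tested. Ventral mid anagen departed from this order, with shaft markers at 31216 to 33308 FPKM and Awat1 at 31.9 and 44.9 FPKM. Dorsal mid anagen had similar shaft markers (36634 to 38237 FPKM) and Awat1 at 7.40 to 8.00 FPKM.

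**Figure D5:**
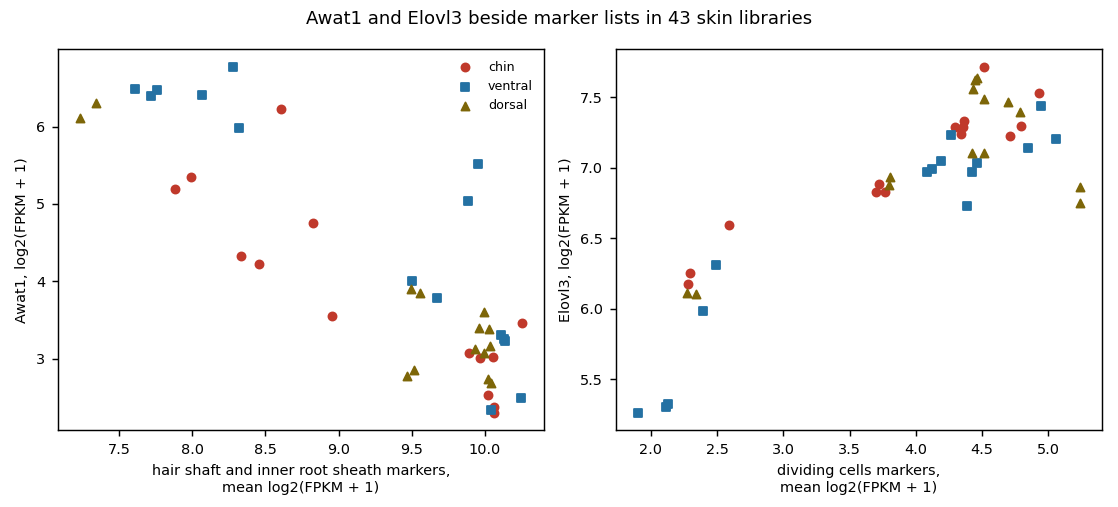
Left, Awat1 against the mean of the hair shaft and inner root sheath markers, and right, Elovl3 against the mean of the dividing cell markers, all as log2(FPKM + 1), with 1 point per library of the 43 and a colour and marker per domain. Awat1 is mostly lower where shaft markers are higher. The 2 ventral mid anagen libraries and chin refractory telogen replicate 2 are among those that depart from this. Elovl3 is low in the libraries with few dividing cell transcripts.

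The genes whose pattern over the 18 groups was most like the mean z-score of the 9 genes, among 14622 genes with a mean of at least 1 FPKM, were Ak3 (Pearson r 0.97), Gm13177, Ces4a, Gm5538, Elovl5, Cyp3a57, Ets1, Cers5, Tlcd2 and Pnpla5 (0.96). For single genes, the closest were Gm5538 and Tbc1d20 for Awat1 (0.99 and 0.98), Hsd3b6 and Gm12551 for Awat2 (0.98 and 0.98), Ces4a and Cers5 for Dgat2l6 (0.98 and 0.97) and Gm5538 and Pnpla5 for Far2 (0.99 and 0.98). Scd3 was most like Serpinb6e (0.98) and Gm12551 (0.97), and Scd1 most like Aldh1a7 (0.97) and Ces1d (0.95). Elovl3 (Slc6a13 and Knstrn, both 0.92), Mc5r (Aldh3b2 and Cttn, both 0.94) and Soat1 (Camkk1, 0.85, and Prpf39, 0.84) had other neighbours than the 5 genes that moved together.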

How the data were processed

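RNA of whole skin and ear tissue had been sequenced as paired-end SMART-seq2 libraries. Reads were aligned by the authors to mm10 (GENCODE vM8), quantified with RSEM (version 1.2.25, also named in the submitters' processing notes) and deposited by them as FPKM per gene with 2 decimals. They state that samples were batch-effect corrected, without naming batches or a method, and that edgeR was used. No counts were at hand. The dorsal columns of the ear table repeat those of the skin table (0 genes differ), so 48 libraries are distinct. The study names the dorsal tissue of the ear comparison as refractory telogen in its main text and as first telogen in a figure legend, and the columns are labelled competent telogen, its term for first telogen. The 2 ear skin columns could be assigned to their group but not to a replicate number.

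Values were taken as log2(FPKM + 1), which understates the fold of low genes such as Dgat2l6. Genes that reached 0.5 FPKM in 2 or more libraries (21257 in skin, 19299 in ear) were fitted with limma 3.58.1 in R 4.3.3 (1 model of 18 groups and 1 of 3 tissues, variance trend, no block), with Benjamini-Hochberg adjustment over all genes of each comparison at 0.05. Values, correlations and figures were made with Python 3.11.15, numpy 2.4.6, pandas 2.3.3 and matplotlib 3.10.9. Depth was estimated from whole-fragment steps in the FPKM of genes with 1 transcript, and the 3-fragment limit covers counting error only. The largest estimates are less certain, since they rest on about the fewest values allowed. These were 207 for complex replicate 1, 200 for dorsal refractory telogen replicate 2 and 201 for the ear skin column numbered 2. Limma and the depth estimate were tested on simulated data. The members and lists were chosen with earlier results of these data known.

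All 9 genes were considered in every comparison. Not every comparison is described, and in some of those described only part of the genes is named. Of each pathway list the counts and at most 3 called genes with the largest change are given. Likeness used the 10 genes with the highest Pearson r to the mean z-score of the 9 genes, and 2 for each gene. The replicate number did not pair libraries: over 327 pairs of libraries with the same number in different groups the median correlation of residuals was 0.003, with 9 pairs above 0.1.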

Additional observations from a re-analysis of the deposited data

Results flagged for a closer look

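For each of the 9 genes the course over the 6 stages differed between chin, ventral and dorsal skin by a test of the difference itself (limma interaction F-test over 43 libraries, Benjamini-Hochberg adjustment over 21257 genes, of which 73.3% passed). The adjusted p was 9.7e-17 for Scd3, 9.1e-15 for Awat2, 2.6e-14 for Far2, 4.2e-12 for Awat1, 4.6e-11 for Dgat2l6, 1.0e-10 for Elovl3, 5.2e-09 for Scd1, 2.4e-08 for Soat1 and 6.1e-08 for Mc5r. All 9 remained past the threshold without the 3 competent telogen groups and ventral early anagen, whose marker levels differed from their stage labels, and this alternative was added after the data had been seen. Since the interaction uses only stages present in all 3 domains, it then covered mid anagen, late anagen, catagen and refractory telogen, without early anagen of any domain. Single-library outliers were not looked for, since no group has more than 3 libraries.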

How the results depend on the processing

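Of the calls counted above, those of Awat1 and Far2 (17 each) held under all alternatives run. At least 1 call was lost under some alternative for Scd1 (3 of 13), Scd3 (1 of 17), Elovl3 (1 of 5), Mc5r (4 of 7), Awat2 (1 of 17), Dgat2l6 (2 of 16) and Soat1 (5 of 10). These tallies cover the single differences that enter a count given beside a share of all genes. Calls named outside such counts are left out. Among these are the rise of Elovl3 from dorsal early to mid anagen and the fall of Mc5r from chin catagen to refractory telogen, whose losses are given above. Signs turned in 8 cases, 3 of them in called differences: Elovl3 in dorsal minus ventral competent telogen under scaling by the median of ratios (0.085), and Scd3 (-1.03) and Awat2 (-1.22) in ear skin with dorsal early anagen as the dorsal tissue. The others were differences that had not passed and did so with the opposite sign when 1 ventral refractory telogen library was left out. Without replicate 1 or 2, Scd1 was 0.56 or -0.77 in ventral competent minus refractory telogen and -0.50 or 0.84 in ventral minus chin refractory telogen. Mc5r was -0.94 or 0.62 in the latter, 0.89 or -0.67 in dorsal minus ventral refractory telogen and -0.93 or 0.63 in ventral refractory telogen minus catagen. Domain differences at catagen went from 2 to 5 genes with only the libraries of that stage. With each library left out, the late anagen count ran from 3 to 6 around 5, and no other count of differing genes moved by over 1.5 times. Without either ear skin library Dgat2l6 was above 0.5 FPKM in only 1 library and was not tested. With the replicate block the counts were unchanged at each of the 6 stages (8, 8, 7, 5, 2 and 7), over stages, for the interaction and in the ear, and 1 single difference was lost (Scd3 in dorsal minus ventral refractory telogen, adjusted p = 0.055). The median of all genes was between -0.25 and 0.33 in single comparisons as deposited. Leaving 1 of 2 libraries out gives a lone library that is assumed to vary like the other groups. By Spearman rho the most like gene was again Ak3, and 4 of the 10 listed ranked below 20. Depth limits Dgat2l6 in most groups, where it was below 0.5 FPKM.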
